A study of Mus musculus with 3 samples.

Results

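Metabotropic glutamate (mGlu) receptors and kainate receptors let neurons and glia sense glutamate, the main excitatory transmitter of the hippocampus. The genes described here are 6 of the mGlu receptor genes (Grm2, Grm3, Grm4, Grm5, Grm7 and Grm8) and 3 of the kainate receptor subunit genes (Grik1, Grik2 and Grik5). They were chosen by name, as the genes whose symbols the array files give for their probes. The array holds 14 probes for these 9 genes, out of 39429 probes and 24617 named genes in all. All 14 probes passed the filter on dim signals, as did 27631 probes and 17965 genes of the whole array.

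The samples were total RNA of the hippocampus of adult male mice. One group were sons of older mothers, bred at 15 to 18 months of age, and the other were sons of young mothers, bred at 3 months. The fathers were virgin males of 3 months in both groups, and the sons were killed by cervical dislocation at postnatal day 120. Each group had 3 pools, each made of equal amounts of RNA from 3 animals, and whether the pools shared litters is not given. On each of 3 Agilent arrays, 1 older-mother pool was labelled with the dye Cy3 and 1 young-mother pool with Cy5. The dyes were never swapped, so dye and maternal age cannot be told apart in any value here, and p-values measure the spread between these pools.

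The mGlu receptors are coupled to G proteins and fall into groups I, II and III. Group I, to which Grm5 belongs, sits mainly on the postsynaptic side and acts through Gq and phospholipase C. Group II (Grm2 and Grm3) and group III (Grm4, Grm6, Grm7 and Grm8) act through Gi/o proteins, lower cyclic AMP and, at nerve terminals, restrain transmitter release. Kainate receptors are ion channels built of several subunits. GluK1 to GluK3 (Grik1 to Grik3) can form channels of their own, while GluK4 and GluK5 (Grik4 and Grik5) join them as high-affinity partners. In the hippocampus kainate receptors are best known from the mossy fibre synapses between dentate granule cells and CA3 pyramidal cells, and from interneurons.

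The results turn on 4 probes, and the first 30 of the 60 bases of each are shown so that the measured stretch of transcript can be identified. The 2 Grik2 probes are shown together because they measured different stretches of the same gene with different outcomes. Positions are those of the array files, whose headers name the mouse build mm9; no annotation of that build was used here, so exon and UTR membership is not given.
Grm7 A_66_P114461: actttcgttaatcttgctgcttatgtgtca
Grm3 A_51_P486543: acagtggcaatattaggtaacctttttcct
Grik2 A_55_P2039981: tagaaaatatacatcaaggggtcttaggat
Grik2 A_55_P2039992: aaatacagagaatacccaagtctcctccat

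The Grm7 probe lies at chr6:111517083-111517142 on the plus strand and the Grm3 probe at chr5:9485369-9485428 on the minus strand. The Grik2 probes lie on the minus strand of chromosome 10, A_55_P2039981 at chr10:48819269-48819325 and A_55_P2039992 at chr10:49243534-49243593. The position given for A_55_P2039981 spans 57 bases, fewer than the 60 of the probe, and that for A_55_P2039992 spans 60. G and C make up 35% of the bases of the Grm7 and Grm3 probes, 36.7% of A_55_P2039981 and 45% of A_55_P2039992.

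Most of these receptor genes differed little between sons of older and young mothers. Taking the brightest probe of each gene, 0 of 9 genes were higher in the older-mother pools and 1, Grm7, was lower, at an adjusted p under 0.05 in limma. Of all 17965 genes, 7.34% were called higher and 12.2% lower by the same rule, 19.5% in all. At an unadjusted p under 0.05 in limma, 0 receptor genes were higher and 2 lower (Grm7 and Grm3). Of all 27631 probes, 38.6% reached that in either direction, the share to set beside each unadjusted count below. The receptor genes' share of lower calls at the adjusted p was therefore close to that of the array. Under median centring in place of loess, which puts the median of all probes at -0.33, 8 of the 9 were called lower, and with Agilent's processed signals 0 were. The mean log2 ratios of older over young ranged from -0.25 for Grm7 to 0.11 for Grik1, with 5 genes above 0 and 4 below. Their median was 0.0018, against -0.028 over all genes tested. The median absolute log2 ratio was 0.042 for the receptor genes and 0.109 for all genes tested. On arrays 1, 2 and 3, the receptor genes' medians were -0.060, 0.0091 and -0.10, and 3, 6 and 3 of the 9 genes lay above 0.

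**Figure D1:**
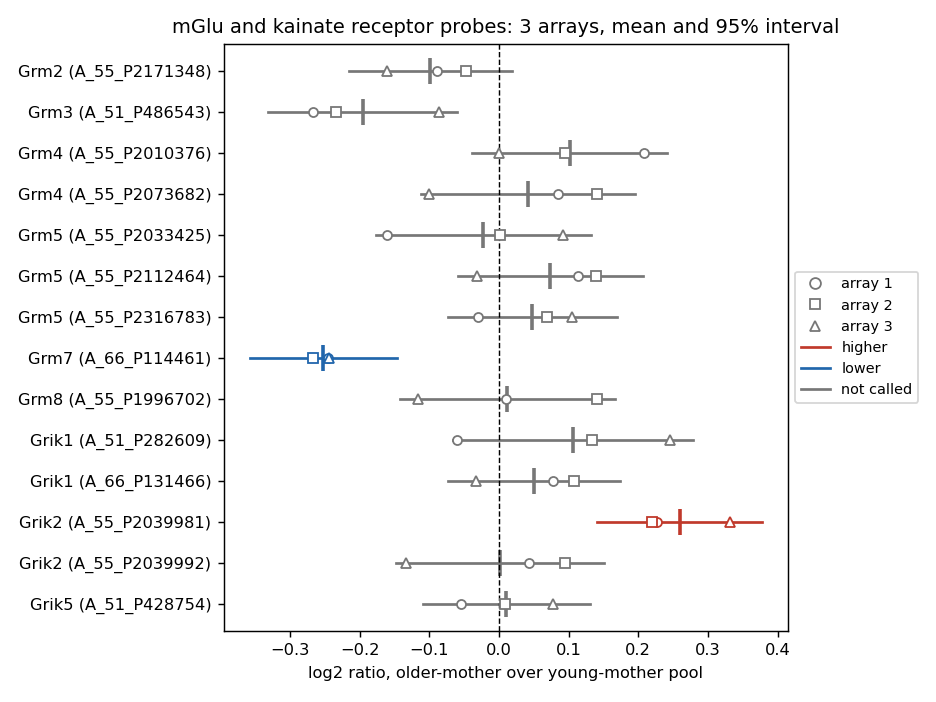
Log2 ratio of the older-mother over the young-mother pool (x axis) for the 14 receptor probes (y axis). Open symbols are the 3 arrays, vertical ticks the means and horizontal lines the 95% intervals of the limma fit; Grm7 lies below 0 and Grik2 A_55_P2039981 above 0 on all 3 arrays, and both are coloured as called.

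By probe, 1 of 14 was called higher (7.92% of all 27631 probes) and 1 lower (10.7%), with 18.6% of all probes called in either direction. The sign of the ratio was the same on all 3 arrays for 4 of the 14 probes, those of Grm2, Grm3 and Grm7 and 1 of Grik2, against 59.7% of all probes. The levels of the 3 older-mother and the 3 young-mother pools did not overlap for 3 of the 14 probes, against 41.9% of all probes. An unadjusted p under 0.05 was reached by 3 of the 14, against 38.6% of all probes, and an absolute log2 ratio of at least 0.25 by 2, against 14.2%. The first 3 of these counts thus lay below the share of the array and the last was close to it; none was tested as a list.

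Grm7, which encodes mGlu7, was lower in sons of older mothers. mGlu7 is a group III receptor of the presynaptic active zone with a low affinity for glutamate. Its log2 normalised level was 10.42, 10.38 and 10.37 in the older-mother pools of arrays 1, 2 and 3, against 10.66, 10.64 and 10.61 in the young-mother pools. All 3 older-mother pools lay below all 3 young-mother pools, and the pools within each group lay close together. The log2 ratio was -0.25, -0.27 and -0.25 by array and averaged -0.252 ± 0.013 (SD, n = 3), or 1.19-fold lower. The adjusted p in limma was 0.0229, and the 95% interval was -0.36 to -0.15. The adjusted p was 0.129 without replicate 2 and 0.0697 without replicate 3, with log2 ratios of -0.24 and -0.26. With Agilent's own processed signals the log2 ratio was -0.21 and the adjusted p 0.0641. RNA was taken from whole tissue, so fewer cells that express a gene and less RNA per cell cannot be told apart, here or for any gene below.

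The other group III genes measured, Grm4 and Grm8, were not called. Grm4 encodes mGlu4, a presynaptic receptor best known from cerebellar parallel fibres. Its brighter probe, A_55_P2073682, read log2 levels of 8.50, 8.51 and 8.34 in older-mother pools and 8.42, 8.37 and 8.44 in young-mother pools, which overlap. Its log2 ratio was 0.042 ± 0.126 (SD, n = 3; limma adjusted p = 0.644; 95% interval -0.11 to 0.19). The dimmer Grm4 probe, A_55_P2010376, averaged 0.10 ± 0.10 (adjusted p = 0.235 in limma). The per-array difference between these probes averaged 0.060 ± 0.092.

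Grm8 encodes mGlu8, another presynaptic group III receptor. Its probe read 7.97, 7.96 and 8.09 in older-mother pools and 7.96, 7.82 and 8.20 in young-mother pools. The arrays went in different directions, with log2 ratios of 0.010, 0.14 and -0.12. The mean was 0.012 ± 0.128 (SD, n = 3; limma adjusted p = 0.903; 95% interval -0.14 to 0.17). The fourth group III gene, Grm6, whose product serves ON bipolar cells of the retina, was not well above background on any array in either dye.

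Group II genes had ratios below 0 on all 3 arrays but did not pass the threshold. Grm3 encodes mGlu3, which is found on neurons and astrocytes. Its log2 level was 9.37, 9.26 and 9.38 in older-mother pools and 9.64, 9.49 and 9.47 in young-mother pools. The groups did not overlap, although the highest older-mother pool and the lowest young-mother pool, both of array 3, lay close to each other. The log2 ratio was -0.27, -0.23 and -0.086, with a mean of -0.196 ± 0.097 (SD, n = 3), or 1.15-fold lower. The 95% interval was -0.33 to -0.060 before adjustment, and the adjusted p in limma was 0.0593. Of the settings tried, 4 put Grm3 below the threshold, among them the fit of separate channels with the replicate block (adjusted p = 0.0445).

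Beside Grm3, the 10 astrocyte markers measured showed 2 higher (Gfap, an intermediate filament gene, and Gjb6, a connexin gene) and 0 lower (1 at an unadjusted p under 0.05 in limma), with a median log2 ratio of 0.049. Their summed signal was 108294 to 112980 intensity units in older-mother pools and 107484 to 112302 in young-mother pools. The astrocyte sums overlapped between the groups, and the part of these markers in the Grm3 value was not tested.

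Grm2 encodes mGlu2, the presynaptic group II receptor of mossy fibre terminals. It read 10.04, 9.97 and 9.83 in older-mother pools and 10.13, 10.01 and 9.99 in young-mother pools. The ranges overlapped, while the older-mother pool was the lower one on each array. The log2 ratio averaged -0.099 ± 0.058 (SD, n = 3; limma adjusted p = 0.180; 95% interval -0.22 to 0.018). Dentate granule cell markers, of which 5 of 6 were measured, had 1 called higher (Calb1, a calcium buffer) and 0 lower in limma (2 and 0 at an unadjusted p under 0.05), and Tdo2 was not above background. Their summed signal was 5369 to 5984 units in older-mother pools and 4816 to 5261 in young-mother pools. That sum was higher in all older-mother pools, but the list was split. Its median log2 ratio was 0.025, with 0.22, -0.021 and -0.089 on arrays 1, 2 and 3. Beside Calb1 at 0.24, Lct and Dsp averaged 0.26 and 0.025, and Prox1 and C1ql2 -0.14 and -0.071. The part of these markers in the Grm2 value was not tested.

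**Figure D2:**
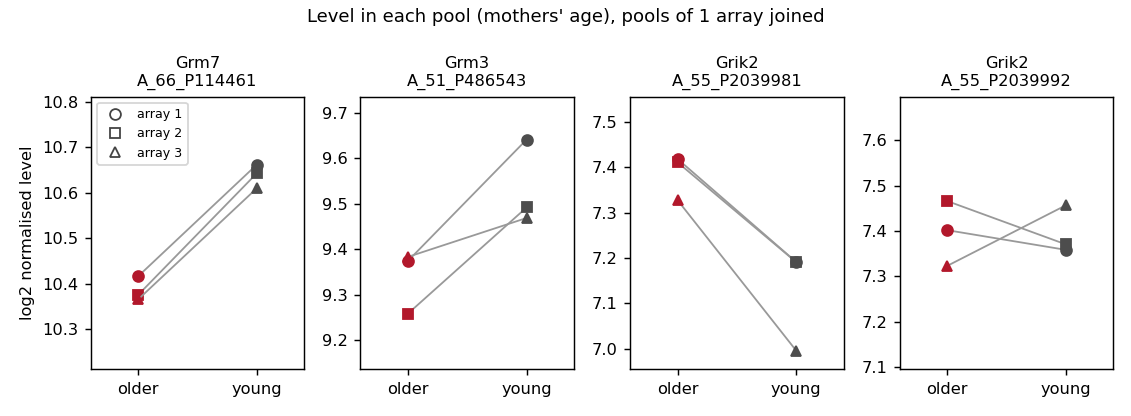
Log2 normalised level (y axis) of Grm7, Grm3 and the 2 Grik2 probes in each older-mother (red) and young-mother (grey) pool, with the pools of an array joined. All older-mother pools are lower for Grm7 and Grm3 and higher for Grik2 A_55_P2039981, while those of Grik2 A_55_P2039992 overlap with the young-mother pools; each panel has its own axis range, and levels of different probes are not comparable.

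Grm5, of group I, was not called. It encodes mGlu5, the main postsynaptic group I receptor of hippocampal pyramidal cells. Its brightest probe, A_55_P2033425, read 12.86, 13.00 and 12.93 in older-mother pools and 13.02, 12.99 and 12.84 in young-mother pools. The groups overlapped fully. The log2 ratio was -0.022 ± 0.128 (SD, n = 3; limma adjusted p = 0.813; 95% interval -0.18 to 0.13). The other probes averaged 0.074 ± 0.092 for A_55_P2112464 and 0.048 ± 0.069 for A_55_P2316783, with limma adjusted p of 0.347 and 0.499. The mean over the 3 Grm5 probes was 0.033 (adjusted p = 0.611 in limma), so the sign of the gene's value rests on which probe is read.

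Among the kainate receptor genes, Grik2 gave 2 different readings. It encodes GluK2, the principal pore-forming subunit at mossy fibre synapses. Probe A_55_P2039981 read log2 levels of 7.42, 7.41 and 7.33 in older-mother pools and 7.19, 7.19 and 6.996 in young-mother pools, so all older-mother pools were higher. Its log2 ratio was 0.23, 0.22 and 0.33, with a mean of 0.260 ± 0.063 (SD, n = 3), or 1.20-fold higher. The adjusted p in limma was 0.0265, with a 95% interval of 0.14 to 0.38. Without replicate 1, 2 or 3 the adjusted p was 0.0502, 0.106 and 0.0836, and with no background correction the ratio was 0.16 (adjusted p = 0.104), moving the value by over 1.5 times. With Agilent's processed signals the ratio was 0.29 and the adjusted p 0.177.

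Probe A_55_P2039992, which stands for Grik2 in the gene counts because it is slightly brighter, read 7.40, 7.47 and 7.32 in older-mother pools and 7.36, 7.37 and 7.46 in young-mother pools. Here the groups overlapped, and the log2 ratio was 0.043, 0.095 and -0.13 on the 3 arrays. The mean was 0.0018 ± 0.120 (SD, n = 3; limma adjusted p = 0.986; 95% interval -0.15 to 0.15). The ratio of A_55_P2039981 exceeded that of A_55_P2039992 by 0.18, 0.12 and 0.47 on the 3 arrays, 0.258 ± 0.182 on average, a difference that was not tested. The files list the same 2 RefSeq transcripts for both probes, with starts at base 4815 for A_55_P2039981 and at base 1258 for A_55_P2039992. The 2 probes also list different Ensembl transcripts, and the mean over both gave 0.13 (adjusted p = 0.0807 in limma).

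Grik1 encodes GluK1, the kainate subunit best known from hippocampal interneurons. Its brighter probe, A_51_P282609, read 8.34, 8.27 and 8.37 in older-mother pools and 8.404, 8.14 and 8.12 in young-mother pools. The ranges overlapped, with array 1 going against the others. The log2 ratio was 0.106 ± 0.154 (SD, n = 3; limma adjusted p = 0.30; 95% interval -0.065 to 0.28). The second probe, A_66_P131466, averaged 0.051 ± 0.074 (adjusted p = 0.482 in limma) and was well above background in Cy3 on 2 arrays. Of 10 interneuron markers measured, 0 were higher and 1 was lower in limma (0 and 3 at an unadjusted p under 0.05). The lower one was Slc32a1, which encodes the vesicular GABA transporter, with a log2 ratio of -0.36 (limma adjusted p = 0.0163). The summed signal of all 10 markers was 64415 to 69329 units in older-mother pools and 69532 to 72887 in young-mother pools. That sum was lower in all older-mother pools, but the list was split. Its median log2 ratio was -0.030, with -0.093, 0.017 and -0.057 on arrays 1, 2 and 3. Pvalb, Vip, Sst and Dlx1 averaged 0.053, 0.099, 0.028 and 0.044. Gad2, Reln, Npy, Lhx6 and Gad1 averaged -0.16, -0.12, -0.053, -0.045 and -0.014. The part of these markers in the Grik1 value was not tested.

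Grik5 encodes GluK5, the high-affinity partner that reaches the membrane with GluK1 to GluK3. It read 11.83, 11.87 and 11.82 in older-mother pools and 11.89, 11.86 and 11.74 in young-mother pools. These ranges overlapped, and the log2 ratio was 0.011 ± 0.066 (SD, n = 3; limma adjusted p = 0.885; 95% interval -0.11 to 0.13). Over the 8 receptor genes that were not called, the 95% intervals lay between -0.33 and 0.28 on the log2 scale.

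Related receptor genes were named whatever their values. Grik3 (GluK3) had ratios below 0 on all 3 arrays, with a mean of -0.284 ± 0.205 (limma adjusted p = 0.0675). Array 3 read -0.52, and without replicate 3 the mean was -0.17 (adjusted p = 0.132). A second Grik3 probe was not well above background on any array. Grik4 (GluK4) averaged -0.055 ± 0.036 (adjusted p = 0.396 in limma) and Grid1 -0.18 ± 0.12 (adjusted p = 0.0860). The Grid1 ratio was -0.11 without replicate 1 and -0.36 with Agilent's processed signals. Grid1 encodes a delta receptor, which binds synaptic organisers of the cerebellin family.

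The receptors' partners were described next, from lists of genes that bind, transduce or share the glutamate pathway. Beside the counts of calls below stand 7.34% higher and 12.2% lower over all 17965 genes, and no list was tested as a set. Beside the counts at an unadjusted p under 0.05 in limma stands 38.6% of all probes, in either direction. Kainate receptor partners gave no call among 7 genes in limma (0 higher and 0 lower, and 1 and 1 at an unadjusted p under 0.05), with a median log2 ratio of -0.087 against -0.028 over all genes tested. The largest value in that list was that of C1ql3, a secreted C1q-like protein of mossy fibres, at 0.28 ± 0.18 (limma adjusted p = 0.0550). Neto1 and Neto2, the auxiliary subunits that slow channel gating, averaged -0.097 and 0.11 by their brightest probes, with adjusted p of 0.246 and 0.234 in limma. For each of them only 1 of the 2 kept probes had that direction.

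Of 16 mGlu scaffolds and binding partners, 1 was higher and 2 were lower, with a median of 0.043. Calm2, 1 of 3 genes for calmodulin, which binds mGlu7, was lower by its brightest probe (-0.328 ± 0.062, limma adjusted p = 0.0188), and its other probe read -0.11. Ncdn, the mGlu5-binding protein neurochondrin, fell by 0.20 on the log2 scale (limma adjusted p = 0.0437), while its other probe read -0.031. Shank2, a postsynaptic scaffold linked to mGlu receptors through Homer, was the one called higher, by a probe that was not well above background in any young-mother pool. That probe passed the filter through the older-mother pools alone, and under the stricter filter it was not tested. Its log2 ratio was 0.48, 1.11 and 1.55 on the 3 arrays. The mean log2 level was 7.10 in older-mother pools and 6.05 in young-mother pools, at least 1.86-fold apart on average. As it was kept through the group where it is high, its p-value is not given. The second Shank2 probe averaged -0.11 and was well above background in all young-mother pools but in no older-mother pool.

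The Gq arm, through which group I receptors signal, gave 0 higher and 2 lower of 13 genes in limma (0 and 3 at an unadjusted p under 0.05), with a median of -0.059. Dagla, which makes the endocannabinoid 2-arachidonoylglycerol downstream of mGlu5, averaged -0.35 ± 0.11 (limma adjusted p = 0.0219). Plcb1, the phospholipase C coupled to Gq, averaged -0.269 ± 0.073 by its brightest probe (adjusted p = 0.0265). Its other probes read -0.0031 and 0.15, so the 3 Plcb1 probes disagree.

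The Gi/o arm, used by group II and III receptors, gave 3 higher and 1 lower of 21 genes, with a median of 0.086. Kcnj9, a subunit of G-protein-gated potassium channels, averaged 0.35 ± 0.14 (limma adjusted p = 0.0267). The adenylyl cyclase genes Adcy8 and Adcy9 were higher, by 0.24 (adjusted p = 0.0268) and 0.17 (adjusted p = 0.0492) in limma. Gnb5, a G-protein beta subunit that pairs with RGS proteins, was lower at -0.270 ± 0.025 (limma adjusted p = 0.0214), with its other probe at -0.015.

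**Figure D3:**
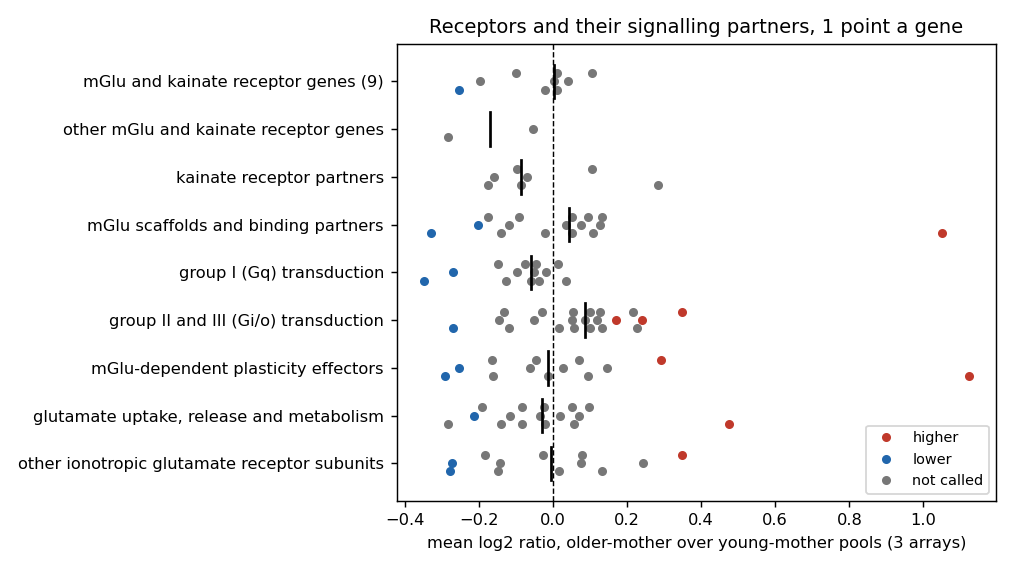
Mean log2 ratio of older-mother over young-mother pools on 3 arrays (x axis) for the 9 receptor genes and 8 lists of relatives and partners (y axis), with 1 point a gene by its brightest probe and a vertical line at each median. The receptor genes lie between -0.25 and 0.11, and the highest points, above 1, are Arc and Shank2. Shank2 passed the filter through the older-mother pools alone.

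Among plasticity effectors that mGlu receptors engage, 2 of 13 were higher and 2 lower, with a median of -0.014. Arc, an activity-induced gene that drives removal of AMPA receptors, read log2 ratios of 1.15, 1.46 and 0.76 on the 3 arrays. Its mean was 1.12 ± 0.35 (limma adjusted p = 0.0152), the largest in that list. Nptx2, a secreted pentraxin that gathers AMPA receptors, averaged 0.29 (adjusted p = 0.0392 in limma) with its other probe at -0.025. Camk4, a nuclear calcium-calmodulin kinase, and Cyfip1, a partner of the fragile X protein, were lower at -0.29 (adjusted p = 0.0195) and -0.25 (adjusted p = 0.0255) in limma. The other Camk4 probes read -0.14 and -0.061 and were not called.

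Of 16 genes of glutamate uptake, release and metabolism, 1 was higher and 1 was lower, with a median of -0.029. Slc38a2, a neutral amino acid transporter, averaged 0.47 ± 0.12 (limma adjusted p = 0.0163). Slc1a1, the neuronal glutamate transporter, averaged -0.21 ± 0.05 (limma adjusted p = 0.0353). Of 12 AMPA, NMDA and delta receptor genes, 1 was higher (Grin2c, an NMDA receptor subunit, at 0.35) and 2 were lower. The lower ones were Grin1, the obligatory NMDA subunit, at -0.28, and Gria4, an AMPA subunit, at -0.27, each with a limma adjusted p of 0.0213. The second Gria4 probe read 0.20 and the second Grin1 probe -0.14, neither of them called.

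Over these lists 18 genes were called. They include Shank2, which passed the filter only through the group where it is high, as do the counts below. Under the stricter filter, which left Shank2 out, the other 17 remained called. The share of the 18 among the list genes tested was close to the 19.5% called over all genes, so it is not particular to the lists. Each of the 18 had the same sign on all 3 arrays, so leaving out a replicate could not change its direction. Without replicate 1, 2 or 3, 13, 2 and 1 of them remained called, with Arc the one called without replicate 3. Relative to the median of all probes, 17 of the 18 kept their direction under median centring, the exception being Adcy9. Averaging all probes of a gene left 12 of the 18 called. With Agilent's processed signals all 18 kept their direction, of which 6 remained called.

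Facts of the whole array bear on all these values. Each array held 44397 spots, the median signal over background was 58.0 to 62.3 intensity units in Cy3 and 153 to 165 in Cy5, and 0 spots were saturated. Of all probes, 2189 were called higher and 2946 lower under loess, against 5997 and 17006 under median centring, which put the median of all probes at -0.33 in place of -0.021. Relative to those medians, Grm7 was lower and Grik2 A_55_P2039981 higher under both scalings. Markers of CA1, CA3 and dentate cells were measured (4 of 4, 3 of 4 and 5 of 6), and Iyd of the CA3 list was not above background. Choroid plexus markers, a tissue that borders the hippocampus, summed to 9233 to 68418 units in older-mother pools and 78581 to 115124 in young-mother pools, with 2 of 8 called lower (8 of 8 at an unadjusted p under 0.05) and a median log2 ratio of -1.20. Thalamic and habenular markers summed to 3431 to 3783 units in older-mother pools and 4397 to 4663 in young-mother pools, also with 2 of 8 lower (4 of 8 at an unadjusted p under 0.05). Of 8 leptomeningeal markers 4 were lower (7 at an unadjusted p under 0.05), and the part of any of these differences in the receptor values was not tested.

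**Figure D4:**
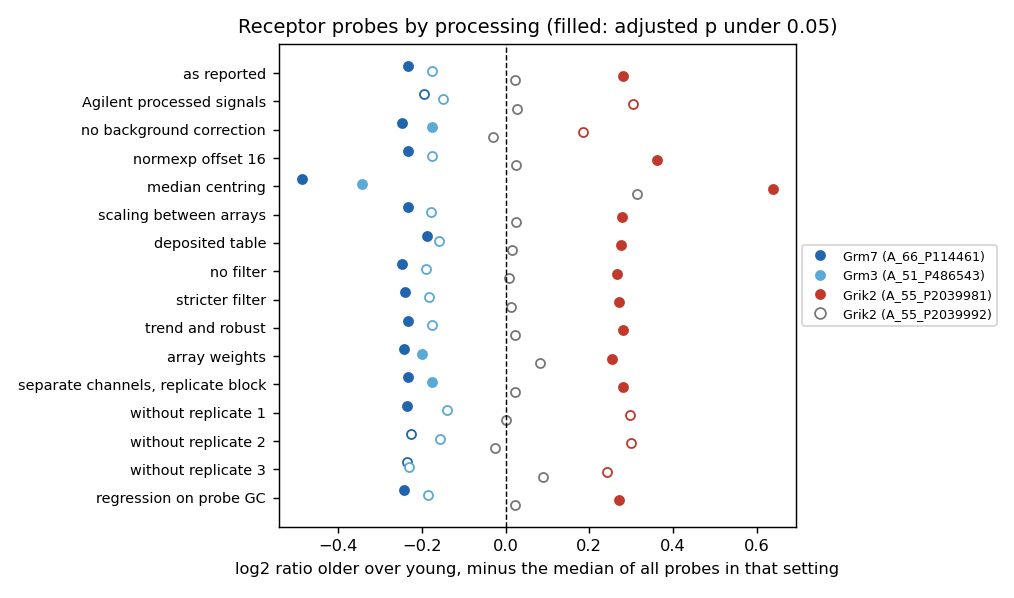
Log2 ratio of older over young minus the median of all probes (x axis) for Grm7, Grm3 and both Grik2 probes under each processing (y axis), filled where the limma adjusted p was under 0.05. Grm7 and Grm3 stayed below 0 and Grik2 A_55_P2039981 above 0 under all 16 processings drawn, while their calls came and went. Each of these probes had 1 sign on all 3 arrays, so leaving out a replicate could not change the sign of its ratio.

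**Figure D5:**
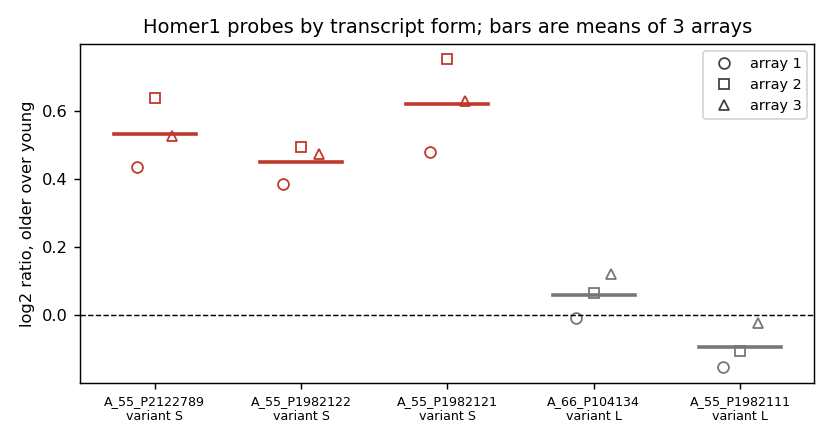
Log2 ratio of older-mother over young-mother pools (y axis) for 5 Homer1 probes (x axis), grouped by the RefSeq transcripts listed for each probe. A probe is variant S where the short-form transcript is listed, and variant L otherwise. Open symbols are the 3 arrays and bars the means: the 3 variant S probes lie between 0.45 and 0.62, and the variant L probes near 0.

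Homer1 was singled out after its values were seen, since its forms have opposite roles at mGlu receptors. The long Homer1 proteins tie group I receptors to Shank and to internal calcium stores, and the short, activity-induced form competes with them. The gene's brightest probe, a variant L probe, was not called (-0.093 ± 0.066, limma adjusted p = 0.211), and the other variant L probe averaged 0.060 (adjusted p = 0.395). The 3 probes of variant S averaged 0.53, 0.45 and 0.62, each with a limma adjusted p of 0.0144. Without replicate 3 each had an adjusted p of 0.0515, and under median centring A_55_P1982122 and A_55_P2122789 were at 0.018 and 0.068. The variant S mean exceeded the variant L mean by 0.51, 0.65 and 0.49 on arrays 1, 2 and 3, or 0.551 ± 0.084 (SD, n = 3), a difference that was not tested. The short-form probes were higher on all 3 arrays, while neither Grm5 nor the long Homer1 form passed the threshold.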

How the data were processed

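Hippocampal RNA pools of both maternal ages were hybridised in pairs to 3 Agilent arrays carrying 60-base probes. Per the file headers, Feature Extraction 10.10.1.1 made the scanner files on build mm9: raw spot and background intensity values, processed intensity values with background and dye corrected, a log10 ratio of Cy5 over Cy3, and flags of another (other) kind, 0 or 1. The deposited table is in log2 units (Cy3 relative to Cy5). How the authors made it is not given in the sources used here, but normexp and loess on median signals gave its values to within 5.0e-10, which fixes its scale and direction. Its column medians were -0.0054, -0.0051 and -0.0056.

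From the mean signals, background was corrected by normexp (offset 50) and dye by loess (span 0.3) within arrays in limma 3.58.1 (R 4.3.3, jsonlite 2.0.0; figures with matplotlib 3.10.9). Control and outlying spots had weight 0, and spots of a probe were averaged. A probe was kept if well above background in Cy3 or in Cy5 on all 3 arrays; 11798 of 39429 were not. The log2 ratio of older over young was tested against 0 with lmFit and eBayes, two-sided (2 residual and 3.42 prior degrees of freedom), with Benjamini-Hochberg adjustment over 27631 probes and a threshold of 0.05. The ratio is taken within an array, so pools are paired by array. A log2 level is the loess-normalised intensity of a channel after quantile normalisation of average intensities between arrays, which leaves the ratios unchanged. Marker sums and the overlap of pools rest on these levels. The offset pulls ratios of dim probes towards 0.

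A gene was read by its brightest kept probe. RefSeq (GRCm38.p6) updated gene names for 28025 probes by accession; 5670 had no gene name, and no coordinates were taken from it. The members, lists and the rule for named genes were chosen with earlier results of these data known. The rule names all 9 receptor genes with every probe, 4 relatives, and each called gene of the pathway lists (up to 8 a list). C1ql3, Neto1, Neto2 and the markers named were chosen after their values were seen, as was Homer1. Some genes of the lists are not reported here and are left out of the list counts. The 12 marker lists cover hippocampal, glial and neighbouring cell types.

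On simulated spots for this comparison (27631 probes), 77 of 100 probes changed by 0.5 on the log2 scale and 99 of 100 changed by 1 were called, with median estimates of 0.37 and 0.85, and 12 unchanged probes were called. Only those 100 and 100 probes were changed, and every probe was given the same spread between arrays. In the data 18.6% of all probes were called and the spread differed between probes, so these shares need not hold there. Changes below 0.5 were not simulated, and the mean ratios of all receptor probes were smaller than that. Alternatives were other signals, background corrections, scalings, filters, variance models, separate channels, averaging all probes of a gene and dropping single replicates; correcting for the GC share of probes was an idea added after seeing the data.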

Additional observations from a re-analysis of the deposited data

How the results depend on the processing

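Grm7 kept its direction under all 16 alternatives and stayed called except with Agilent's processed signals and without replicate 2 or 3, with adjusted p from 4.5e-05 to 0.129. Its sign was the same on all 3 arrays, so leaving out a replicate could not change its direction. The number of receptor genes called lower was 1 as reported, 0 with Agilent's processed signals and 8 under median centring. It was 2 with no background correction, with array weights and in the fit of separate channels with the replicate block (Grm3 joining). When a replicate was left out, it was 0 to 1. No gene was called higher by its brightest probe under any alternative. Under median centring, dimmer probes were called higher: Grm4 A_55_P2010376 at 0.30, Grik1 A_66_P131466 at 0.46 and Grik2 A_55_P2039981 at 0.31. In the array-weights fit 5754 probes were called higher and 7552 lower, with Agilent's processed signals 1169 and 1452, under median centring 5997 and 17006, and 29 to 1459 higher and 0 to 1906 lower when a replicate was left out. The mean over a gene's probes gave 1236 genes higher. Since every ratio is within an array, the replicate block is part of the main design, and the separate channels changed no other call of the 9 genes.

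Several receptor values near 0 changed sign. Under median centring, which lowers the median of all probes to -0.33, Grm4 was at -0.29 (A_55_P2073682), Grm5 at -0.43 (A_55_P2112464) and -0.28 (A_55_P2316783), Grm8 at -0.22, Grik1 at -0.19 (A_51_P282609), Grik2 at -0.017 (A_55_P2039992), and Grik5 at -0.62. The same setting put Slc38a2 at -0.15, Kcnj9 at -0.17, Adcy9 at -0.50, Nptx2 at -0.077, Grin2c at -0.24 and Homer1 A_66_P104134 at -0.38. With Agilent's processed signals Grm4 A_55_P2010376 was at -0.046 and Grik1 A_66_P131466 at -0.013. With no background correction Grik2 A_55_P2039992 was at -0.051. In the deposited table Grm8 was at -0.0032 and Grik2 A_55_P2039992 at -0.0055. When a replicate was left out, Grm4 A_55_P2073682 ranged from -0.0077 (without replicate 2) to 0.11, Grm5 A_55_P2033425 from -0.079 to 0.047 (without replicate 1), Grm8 from -0.053 (without replicate 2) to 0.075, Grik5 from -0.022 (without replicate 3) to 0.043, and Grik2 A_55_P2039992 from -0.045 (without replicate 2) to 0.069, with -0.019 without replicate 1. The mean over its probes put Grm5 at 0.033. The cause was not tested.

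The number of arrays limits the precision, Cy3 gave the dimmer signal throughout, and the dimmest receptor probes (Grik2, Grik1 A_66_P131466 and Grm4 A_55_P2010376) lie nearest to background.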
